A study of Mus musculus with 18 samples.

Results

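The mRNA isoforms described here have a very short leader, the stretch of 5′ UTR between the cap and the start codon. They were chosen from the rows of both deposited tables that the authors class as annotated transcripts, are not from the mitochondrial chromosome, have a leader of 1 to 30 nt and do not start with a terminal oligopyrimidine (TOP) tract, here a C followed by 4 pyrimidines. The rule used no measured value of translation or stability. It found 433 of the 7123 isoforms in the polysome table, which lie in 393 loci and hold 7.02% of that table's coverage. In the decay table it found 511 of 6636 isoforms in 460 loci, with 7.87% of the coverage. In total 728 isoforms were members in at least 1 table and 216 in both. A TOP start left out 34 and 37 further short leaders. The comparison set is the annotated leaders of 31 to 100 nt without a TOP start, 1044 and 1069 isoforms.

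The data are TIF-seq2 libraries, in which both ends of the same mRNA molecule are read, from myotubes grown out of gastrocnemius myoblasts of female wild-type (WT) mice. All cultures had fused during 24 h in 1 µM SCH772984, an ERK inhibitor, so there is no group without it. For polysome profiling, lysates of 2 mice were separated on sucrose gradients of 10 to 50% after 5 min in 100 µg/ml cycloheximide, which holds ribosomes in place. Each gave 3 libraries, from polysome-free material, from mRNAs with 2 to 5 ribosomes (light) and from those with 6 or more (heavy), 6 libraries in all. For mRNA decay, 3 mice gave RNA at 0, 3, 6 and 12 h of 7.5 µg/ml actinomycin D, which blocks transcription, 12 libraries in all. The tables hold 1 coverage and 1 derived value per isoform, TE (translation efficiency) or half-life, over all libraries of an assay, and 0 columns of a single library. Differences between mice, fractions or times could therefore not be tested, and no p-value is given. Intervals of medians are exact binomial 95% intervals and those of shares are Wilson 95% intervals. Both give the uncertainty of a median or share if isoforms are taken as independent. Isoforms are not replicates of a condition, and some share a locus. TE and half-life are the authors' values with no stated unit. The labels give times in hours.

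A ribosomal subunit normally binds at the cap and scans along the leader for a start codon, and it recognises one best when a purine stands 3 bases before it and a G right after it. A start codon very near the cap leaves little leader to scan, and such codons are often passed over. In mammals, many genes with very short leaders carry an element around the start codon called TISU, the translation initiator of short 5′ UTR, which directs initiation without scanning. TISU is known mostly from genes of mitochondrial and other basic cell functions. The part of TISU that lies in the leader, its last 4 bases, may be CAAG and may also be CAAC, and with a G first it is GAAG and likewise GAAC. After it comes ATGGCGGC, which begins with the start codon.

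The deposited tables hold no gene names. A member was named where its leader followed by ATG stood in a RefSeq promoter window (GRCm38.p6) of 1 gene, on the same chromosome and strand and in a matching place, which named 170 of 433 members in the polysome table and 218 of 511 in the decay table, 216 genes in all. The other members are given by their position on GRCm39, the build of the deposited tables. For a leader of 3 to 5 nt the place carries most of the weight of such a match.

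The most covered named members with the whole TISU element show how close to the cap it lies. Leaders are as deposited, and the start codon and the 8 bases after it are RefSeq's (GRCm38.p6). Capitals mark the 12 letters of TISU. At most 1 isoform per gene is shown, from those with leaders of 4 to 19 nt whose promoter window held all these bases, in order of coverage in the decay table.
Ndufs7 (chr10:80085294-80092626, +): gaaggccgaggcCAAGATGGCGGCgct
Coq9 (chr8:95565041-95581521, +): acttcCAAGATGGCGGCgac
Grwd1 (chr7:45474656-45480219, -): aagaaggttcGAAGATGGCGGCgcg
Ndufs6 (chr13:73467995-73476574, -): accggCAAGATGGCGGCggt
Mtx1 (chr3:89116396-89121214, -): agagagcgtaCAAGATGGCGGCgcc
Mrps18a (chr17:46421930-46439834, +): aggtgcgttcCAAGATGGCGGCcct
Coa3 (chr11:101168797-101169764, -): ggagcagCAACATGGCGGCccc
Get3 (chr8:85744561-85751912, -): acgtgagccgggtcCAAGATGGCGGCggg
Of these 8 leaders, those of Coq9 and Ndufs6 are 9 nt long and that of Get3 is 18 nt. Ndufs7 and Ndufs6 are subunits of respiratory complex I, Coq9 acts in coenzyme Q synthesis, Coa3 in the assembly of cytochrome c oxidase and Mtx1 (metaxin) in mitochondrial import. Mrps18a is a protein of the mitochondrial ribosome, Grwd1 a chromatin and ribosome assembly factor and Get3 an ATPase that targets tail-anchored proteins. Their TE, where the same isoform was in the polysome table, was 0.00141 for Ndufs7, 0.000661 for Coq9, 0.000795 for Grwd1, 0.00164 for Ndufs6, 0.000898 for Mtx1 and 0.000903 for Coa3. Half-lives ran between 9.79 for Grwd1 and 17.1 for Get3.

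Other members carried only the leader part, only ATGGCGGC from the start codon on, or neither part. Those with ATGGCGGC alone are not shown. For comparison, chosen from the same range of 4 to 19 nt and where RefSeq held the 8 bases after the start codon, the 3 most covered with the leader part alone have its letters and the start codon in capitals.
Hint2 (chr4:43654229-43656454, -): gacactctcagGAAGATGgctgctgc
Znrd2 (chr19:5780348-5781737, -): agtgaccacggCAACATGgccttgaa
Hsd17b10 (chrX:150784897-150787436, +): gtgCAAGATGgctgcggc
In the 5 most covered of that range with neither part, capitals mark the base 3 before the start codon and the start codon.
Yif1b (chr7:28937807-28946954, +): atctaaAgcATGcacgcgac
Cox6a1 (chr5:115483714-115487015, -): agttccAtgATGgcgtcggc
Akr7a5 (chr4:139038062-139045736, +): cTccATGctgcgtgc
Cops9 (chr1:92564880-92569673, -): cttgtcGagATGaaacccgc
Copz2 (chr11:96740702-96752026, +): agtgcaggcagcgagcGgaATGcagcggcc
Akr7a5, an aldo-keto reductase, had a leader of 4 nt and a pyrimidine at position -3, counted from -1 at the base before the start codon. The other 4 of this set had a purine there. Yif1b acts in traffic between the endoplasmic reticulum and the Golgi, Cox6a1 is a subunit of cytochrome c oxidase, Cops9 belongs to the COP9 signalosome and Copz2 to the coatomer. Hint2 is a mitochondrial hydrolase of the histidine triad family and Hsd17b10 a mitochondrial dehydrogenase. TE was 0.00143 for Hint2, 0.00109 for Znrd2 and 0.00140 for Hsd17b10 with the leader part. With neither part it was 0.00104 for Yif1b, 0.00163 for Cox6a1, 0.000988 for Cops9 and 0.00111 for Copz2.

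Values below are from isoforms with a coverage of at least 30 and a value above 0. These were 285 of the 433 members in the polysome table and 451 of the 511 in the decay table, against 680 of 1044 and 911 of 1069 isoforms with leaders of 31 to 100 nt. In the polysome table, 148 members were below the coverage minimum, and 0 of those at or above it lacked a positive TE. In the other table, 59 were below it and 1 more had no positive half-life. Median coverage of the isoforms used was 142 for short leaders and 152.5 for leaders of 31 to 100 nt in the polysome table, and 165 and 188 in the decay table.

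The start codon context differed between short and longer leaders in both tables. The 4 bases before the start codon spelled the leader part of TISU in 72 of 277 short leaders of at least 4 nt in the polysome table, 26.0% (21.2 to 31.5%), against 57 of 680 leaders of 31 to 100 nt, 8.38% (6.53 to 10.7%). In the decay table it was 107 of 439, 24.4% (20.6 to 28.6%), against 72 of 911, 7.90% (6.32 to 9.84%). The shares differed 3.10-fold and 3.08-fold, and the intervals did not overlap in either table. The tables share 216 members, so they are not separate samples of genes.

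Within the short leaders every length class had at least 20.1%. In the polysome table the share was 28.6% at 1 to 10 nt, 25.4% at 11 to 20 nt and 25.2% at 21 to 30 nt. It was 7.99% at 31 to 60 nt and 8.72% at 61 to 100 nt. The same classes of the decay table had 27.3%, 26.7% and 20.1% within the short leaders, and then 7.43% and 8.28%. Over all leaders above 100 nt it was 7.10% in the polysome table and 6.79% in the decay table.

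**Figure D1:**
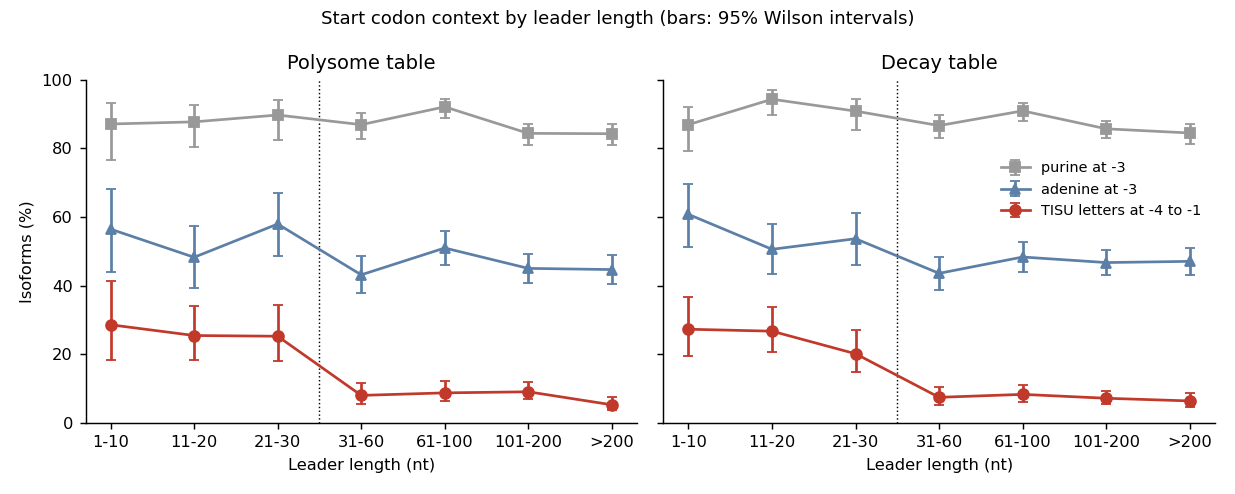
Share of isoforms (y axis, percent) with a purine at position -3 (grey squares), with adenine there (blue triangles) and with the leader part of TISU at -4 to -1 (red circles), by leader length (x axis, nt), for the polysome table on the left and the decay table on the right. Bars are Wilson 95% intervals and the dotted line marks 30 nt. The red points lie between 20.1% and 28.6% up to 30 nt and between 5.24% and 9.04% beyond it, while the grey points stay between 84.3% and 94.3%.

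The most frequent last 4 bases of short leaders were CAAG, in 28 of 277 polysome members (10.1%) and 49 of 439 decay members (11.2%), followed by GAAG with 9.03% and 5.92%. In leaders of 31 to 100 nt, CACC came first with 9.56% and 8.89%, and CAAG had 2.94% and 3.18%. CACC stood before 2.89% of the polysome members with short leaders. The same letters directly upstream, at positions -8 to -5, were rare in both sets. Of leaders with at least 8 nt, 1.94% of the short ones (5 isoforms) and 1.47% of those of 31 to 100 nt (10 isoforms) had them there in the polysome table, and 0.765% (3 isoforms) and 1.10% (10 isoforms) in the decay table. At -4 to -1, the same short leaders had them in 26.7% and 26.0%.

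By position, the short leaders had more adenine at -2. Adenine stood there in 44.2% of them and in 19.4% of leaders of 31 to 100 nt in the polysome table, and in 43.7% and 20.2% in the decay table. Guanine at -1 was found in 38.6% of short leaders against 28.4% in the polysome table, and in 40.6% against 28.4% in the decay table. A purine at -3, the main position of the scanning context, was about as frequent in both sets. It stood in 88.3% (84.1 to 91.6%) of short leaders and 89.7% (87.2 to 91.8%) of leaders of 31 to 100 nt in the polysome table, and in 91.3% (88.3 to 93.6%) and 89.0% (86.8 to 90.9%) in the decay table. The intervals overlap in both. Adenine at -3 was found in 53.7% of short leaders against 47.4% in the polysome table, and in 54.1% against 46.2% in the decay table.

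The bases after the start codon could be read from RefSeq for named members with a leader of at least 4 nt. Promoter windows end 50 bases after the gene start, so named leaders of 31 to 100 nt are nearly all near the short end, and the comparison was limited to leaders of 31 to 38 nt. A G right after the start codon stood in 142 of 157 short leaders, 90.4% (84.8 to 94.1%), against 27 of 38, 71.1% (55.2 to 83.0%), in the polysome table, and in 169 of 202, 83.7% (77.9 to 88.1%), against 23 of 36, 63.9% (47.6 to 77.5%), in the decay table. The start codon was followed by GCG in 49.0% against 23.7% of polysome isoforms and in 46.5% against 36.1% of decay isoforms, with overlapping intervals in the decay table. GCG encodes alanine.

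The whole TISU element, read on the sense strand only and in its place at the start codon, stood in 21 of 157 named short leaders of the polysome table, 13.4% (8.92 to 19.6%), and in 27 of 202 of the decay table, 13.4% (9.35 to 18.7%). ATGGCGGC, with or without the leader part, stood in 45 of the 157 and 55 of the 202. Among leaders of 31 to 38 nt it stood in 0 of 38 and 0 of 36, and so did the whole element. For the whole element, counts of 0 allow shares of up to 7.89% and 8.33% (3 counts of the total). By the upper Wilson limit they allow up to 9.18% and 9.64%, which overlaps its intervals in the short leaders. Anywhere in the 32851 RefSeq promoter windows, the whole element was found in 0.441% on the sense strand and in 0.600% on either strand. Members could be named only where such a window holds their start codon, so these windows are not a matched background.

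Short leaders of isoforms whose 5′ or 3′ end the authors class as new also held the leader part of TISU. Among such leaders of 4 to 30 nt it stood in 37 of 218, 17.0% (12.6 to 22.5%), in the polysome table and in 58 of 361, 16.1% (12.6 to 20.2%), in the decay table. The interval overlaps that of the members in the polysome table and lies below it in the decay table. Both intervals lie above those of annotated leaders of 31 to 100 nt. These sets include isoforms with only a new 3′ end, whose shares were 18.7% and 19.6%. With only a new 5′ end the shares were 16.1% (10.03 to 24.9%) and 13.7% (8.87 to 20.7%). With both ends new they were 14.7% (6.45 to 30.1%) and 9.80% (4.26 to 20.98%). In these classes with a new 5′ end, the intervals overlap those of annotated leaders of 31 to 100 nt.

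Translation efficiency of the short leaders was slightly higher than that of leaders of 31 to 100 nt, with distributions that overlapped nearly throughout. Median TE was 0.000902 (0.000821 to 0.000988) over 285 members and 0.000817 (0.000781 to 0.000862) over 680 isoforms, a ratio of 1.10 or 0.14 on the log2 scale. The middle of the distribution, between the quartiles, ran between 0.000650 and 0.00129 in the short leaders and between 0.000584 and 0.00117 in the longer ones. The SD of log2 TE over isoforms was 0.73 and 0.74, several times the difference, and the intervals of the medians overlap.

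Median TE was close in the classes of 21 to 30 nt and 31 to 60 nt. It was 0.000940 at 1 to 10 nt, 0.000882 at 11 to 20 nt, 0.000902 at 21 to 30 nt and 0.000886 at 31 to 60 nt, then 0.000785 at 61 to 100 nt, 0.000747 at 101 to 200 nt and 0.000627 above 200 nt. Against leaders of 31 to 60 nt alone, the log2 difference of the short leaders was 0.03. Next to the length limit, 21 leaders of 29 to 30 nt had a median of 0.00101 and 29 leaders of 31 to 32 nt one of 0.000880.

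Half-lives of the short leaders were slightly lower. The median was 10.5 (10.2 to 10.97) over 451 members and 11.2 (10.97 to 11.4) over 911 isoforms with leaders of 31 to 100 nt, a ratio of 0.942 or -0.09 on the log2 scale, against an SD of log2 half-life of 0.51 and 0.55. By length the median was 11.2 at 1 to 10 nt, 10.4 at 11 to 20 nt, 10.2 at 21 to 30 nt, 11.1 at 31 to 60 nt and 11.3 at 61 to 100 nt, so the shortest class was not among the lower ones. Next to the length limit, 34 leaders of 29 to 30 nt had a median of 10.02 and 45 leaders of 31 to 32 nt one of 10.9. Leaders of 101 to 200 nt had 10.5. Half-life also moved with coverage among the members (Spearman's rho 0.39 across 451 isoforms, which share their libraries), and coverage was lower in the short leaders. At a coverage of at least 100, the medians were 11.5 over 283 short leaders and 11.8 over 580 leaders of 31 to 100 nt, a log2 difference of -0.04. The part of coverage in the difference was not tested further.

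**Figure D2:**
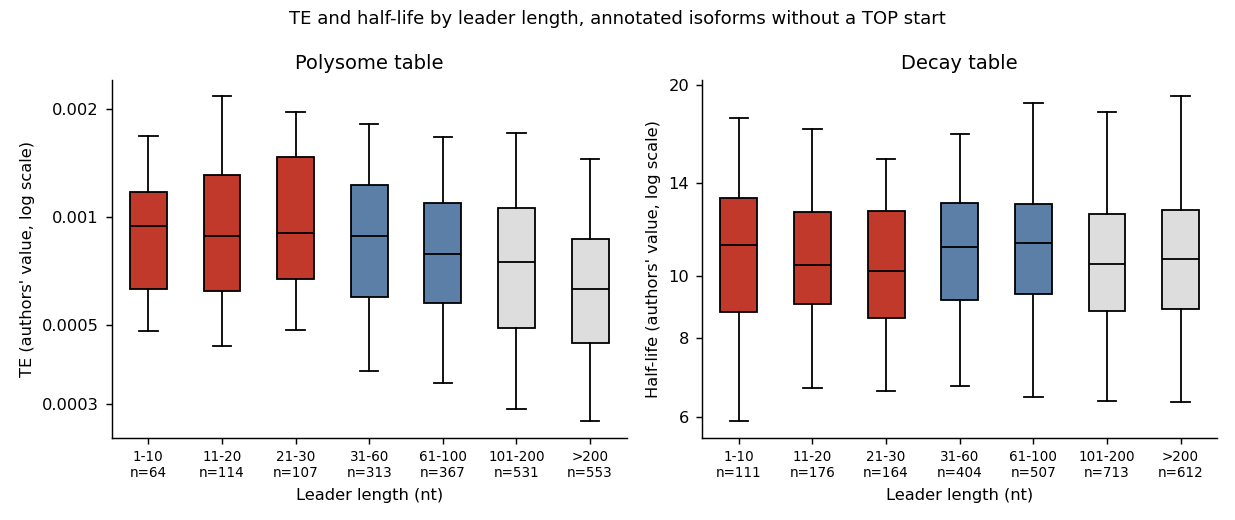
TE (left) and half-life (right), each the authors' value per isoform on a log axis, by leader length in nt. Boxes show the median and quartiles and whiskers the 5th and 95th percentiles; red boxes are leaders of 1 to 30 nt, blue boxes 31 to 100 nt and grey boxes longer annotated leaders. Median TE lies between 0.000882 and 0.000940 up to 60 nt and at 0.000627 above 200 nt, and median half-life between 10.2 and 11.3 in all classes.

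The 3′ UTRs of short-leader isoforms were not of unusual length. Their median was 292 nt (256 to 335) against 305.5 nt (276 to 344) in the polysome table and 335 nt (302 to 366) against 328 nt (295 to 354) in the decay table, with overlapping intervals in both. Leader and 3′ UTR length were unrelated across the members, with Spearman's rho of -0.01 across 285 isoforms and 0.06 across 451. One of the poly(A) signals AATAAA and ATTAAA stood in the last 40 nt of 83.4% of short-leader 3′ UTRs and 85.4% of the others in the polysome table, and of 84.8% and 84.1% in the decay table. An ATTTA pentamer, the core of AU-rich elements, was present in 21.4% against 28.8% and in 30.6% against 34.0%.

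The leaders themselves were less rich in G and C, with a median of 59.1% against 64.8% in the polysome table and 60% against 64.1% in the decay table. An A was the first base in 68.4% of short leaders and 69.0% of those of 31 to 100 nt in the polysome table, and in 65.4% and 70.8% in the decay table. Spearman's rho of TE with this content was -0.12 across 285 short leaders and -0.23 across 680 leaders of 31 to 100 nt. The difference between these values was not tested.

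Among the members, TE went with 3′ UTR length and hardly with leader length. The rule held their leaders to a narrow range of lengths and set no limit on the 3′ UTR. The correlations below can therefore not weigh the leader against the 3′ UTR. Over all annotated leaders, median TE was lowest in the longest class, as given above. Across 285 members, Spearman's rho of TE was -0.59 with 3′ UTR length and 0.08 with leader length. Across the 680 isoforms with leaders of 31 to 100 nt it was -0.54 and -0.13. The sources used here do not say if TE was corrected for the length of the mRNA. A value divided by that length would fall with leader and 3′ UTR length by calculation alone. The part of such a division in these correlations, and in the median TE by leader or 3′ UTR length, was not tested. With 3′ UTRs of up to 150 nt, 84 short-leader isoforms had a median TE of 0.00142 and 175 isoforms with leaders of 31 to 100 nt one of 0.00114. At 151 to 300 nt the medians were 0.000961 and 0.00101, at 301 to 600 nt 0.000808 and 0.000770, and at 601 to 1200 nt 0.000659 and 0.000637. Above 1200 nt, 15 short-leader isoforms had 0.000560 and 56 others 0.000425. The short leaders were thus higher in 4 of 5 classes and lower in 1, and weighting the classes by the members' numbers gave a log2 difference of 0.13.

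Half-life was lower with short leaders in 4 of the 5 classes of 3′ UTR length. The gap was widest at 301 to 600 nt, with 9.89 over 128 members against 11.2 over 235 isoforms with leaders of 31 to 100 nt. Above 1200 nt the order was the other way, with 10.01 over 28 members against 9.23 over 64. Spearman's rho of half-life with 3′ UTR length was -0.16 across the 451 members.

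**Figure D3:**
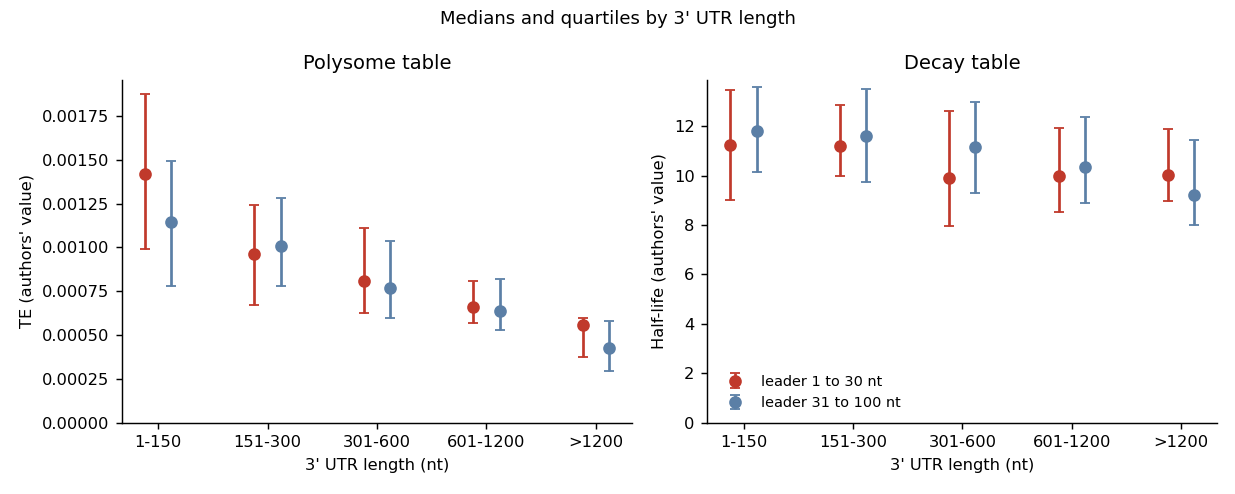
Median TE (left) and median half-life (right), the authors' values, in classes of 3′ UTR length (x axis, nt); bars run between the quartiles. Red is leaders of 1 to 30 nt and blue leaders of 31 to 100 nt. The red TE medians run between 0.00142 for the shortest and 0.000560 for the longest 3′ UTRs. Blue lies close beside them between 151 and 1200 nt, and lower at both ends, at 0.00114 and 0.000425. The half-life medians stay between 9.23 and 11.8.

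Members with and without the leader part of TISU had the same median TE to 3 digits. It was 0.000900 over the 72 members with the leader part and 0.000900 over the 205 without it. With the whole element it was 0.000800 over 17 members. It was 0.000949 over all 119 named ones with leaders of at least 4 nt, which include these 17. The difference was not tested. Median half-life was 11.02 with the leader part (107 members) and 10.4 without it (332), with overlapping intervals of 10.1 to 11.9 and 9.99 to 10.8. In leaders of 31 to 100 nt the leader part went with a TE of 0.000969 (57 isoforms) against 0.000810 (623), again with overlapping intervals.

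A pyrimidine at -3, the weaker scanning context, did not go with lower TE in the short leaders. Median TE was 0.00108 (0.000689 to 0.00152) over the 33 members with a pyrimidine there and 0.000882 (0.000800 to 0.000961) over the 250 with a purine. In leaders of 31 to 100 nt it was 0.000762 (70 isoforms) and 0.000825 (610). An upstream AUG, which can divert ribosomes from the main start codon, was present in 24 of 285 members (8.42%) and in 14.7% of leaders of 31 to 100 nt, which have more room for one. Median TE of these 24 members was 0.001002 (0.000689 to 0.00124) against 0.000898 (0.000808 to 0.000987) for the other 261, with overlapping intervals. Not all of these AUGs lie in another reading frame. At any coverage, 33 polysome members had an upstream AUG, 10 had one in frame with the start codon, and in 4 the leader itself ended in ATG. In leaders of 31 to 100 nt it was 0.000714 (0.000622 to 0.000820) with an upstream AUG and 0.000838 (0.000795 to 0.000882) without.

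Not every member is a gene whose annotated start is as near the start codon. By the deposited distance to the annotated 5′ end, 168 of the 285 members in the polysome table have an annotated leader of at most 30 nt too, and in 117 the annotated start lies further upstream. Their median TE was 0.000906 and 0.000880. For half-life the numbers are 256 and 195, with median half-lives of 10.4 and 10.6.

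The most covered member in both tables lies at chr9:108765769-108778689 on the plus strand and has no gene name here. It had a leader of 18 nt, the leader part of TISU, a coverage of 10780 and 20981, a TE of 0.00156 and a half-life of 11.7. The next most covered in the polysome table was Ankrd2, a muscle ankyrin repeat protein, with a coverage of 5353, a leader of 21 nt, a TE of 0.00109 and a half-life of 14.9. Yif1b followed with a leader of 9 nt, a TE of 0.00104 and a half-life of 13.4.

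Other well covered members had TE values on both sides of the members' median of 0.000902. Cox6a1 had 0.00163, Cope, a coatomer subunit, 0.00141, Tnfrsf12a, the receptor of the cytokine TWEAK, 0.00115 and Ctsd, the lysosomal protease cathepsin D, 0.000742. Unnamed isoforms at chr11:98274650-98275779 (+), chr11:121325795-121341309 (+) and chr10:80128287-80129947 (+) had 0.00117, 0.00151 and 0.00165. The lowest of the 12 most covered was an unnamed isoform at chr6:125122207-125138739 on the plus strand, with 0.000408 and a 3′ UTR of 1138 nt. Among the most covered of the decay table, the proteasome subunit Psmb5 had a half-life of 13.2 at a coverage of 5290, Ndufs7 one of 10.8 at 7410 and Syngr2, a synaptogyrin, one of 11.6 at 3899. Unnamed ones had 11.005 at chr10:60113537-60138376 (+), 11.7 at chr11:98274650-98275776 (+), 12.5 at chr17:25114130-25115259 (+) and 11.8 at chr5:145120517-145128351 (-). An isoform at chr7:43093554-43107203 on the plus strand had 14.2, the highest half-life of the 12 most covered.

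Some isoforms with a coverage of at least 100 had only 2 or 3 nt before the start codon. The isoform at chr10:94034899-94056810 on the plus strand has a leader of 2 nt, a coverage of 2627 in the decay table, a TE of 0.00148 and a half-life of 11.8. One at chr8:71986902-71990073 on the minus strand, also with 2 nt, had 0.00125 and 16.7. The TE of the first was above the members' upper quartile of 0.00129, and the half-life of the second was above their upper quartile of 12.7. The isoform at chr17:36221272-36227258 on the minus strand has 3 nt and had 0.000940 and 11.2. Thap3, a protein with a THAP zinc finger, had a TE of 0.000952 with a leader of 3 nt. Commd3 and Tspan7, a tetraspanin, had half-lives of 10.1 and 11.2 with leaders of 3 nt. The isoform at chr11:69882536-69885770 (+), also with 3 nt, had a half-life of 13.8. With 4 nt, TE was 0.000987 at chr11:69729387-69730442 (+) and 0.000597 at chr4:140793829-140805619 (-). All of these have at least 1 5′ end in the deposited table that is this near the start codon. The sources used here do not say how exactly ends were called. In all but Tspan7 the annotated start lies further upstream. The deposited distance to it ran from -11 for Thap3 to -71 at chr11:69882536-69885770 (+), negative where the annotated start is upstream.

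Picked by their values among members with a coverage of at least 100, the highest TE belonged to Cog4, a subunit of a Golgi tethering complex, with 0.00398 and a deposited 3′ UTR of 1 nt. Sap18, part of histone deacetylase complexes, had 0.00278, Pet100, an assembly factor of cytochrome c oxidase, 0.00234 and Atp5k, a subunit of ATP synthase, 0.00228. At the other end stood the isoform at chr16:4298078-4340930 on the minus strand, with 0.000293 and a 3′ UTR of 2259 nt, Pofut2, a protein fucosyltransferase, with 0.000332 and Ankrd23, a muscle ankyrin repeat protein, with 0.000353. The highest half-life was that of Otub1, a deubiquitinase, with 23.2, at a coverage of 325, and Gpx7, a glutathione peroxidase of the endoplasmic reticulum, had 19.2. The lowest was that of Nob1, an endonuclease of ribosome maturation, with 4.59, at a coverage of 121.

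Unnamed isoforms made up the rest of both ends of the range. Among the 6 highest TE values were 0.00350 at chr8:123202948-123208482 (+) and 0.00234 at chrX:7750572-7760699 (+). Among the 6 lowest were 0.000294 at chr8:73449916-73466529 (+), 0.000316 at chr11:121342850-121507989 (+) and 0.000375 at chr1:87118398-87127793 (+). High and low TE thus occurred with leaders of similar length. The leaders had 10 to 25 nt in the high and 13 to 22 nt in the low ones. The 3′ UTRs had 1 to 159 nt in the high and 218 to 2259 nt in the low ones. Leader length was limited by the rule and 3′ UTR length was not. Among the highest half-lives were 21.7 at chr11:97594300-97604326 (+), 21.3 at chr2:84501661-84508410 (-), 20.96 at chr8:70625069-70635500 (+) and 18.4 at chr13:12284315-12297458 (-). Among the lowest were 4.77 at chr11:5470980-5475890 (+), 5.24 at chr1:79753833-79759161 (+), 5.30 at chr10:107328714-107330584 (-), 5.49 at chr13:49384309-49401632 (-) and 6.24 at chr11:5019898-5049042 (-).

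Nuclear-encoded subunits of the respiratory chain and ATP synthase were the largest listed gene group among the named members, and all that could be measured had TE values above the median of the named members. They made up 10 of 170 named members in the polysome table and 11 of 218 in the decay table. Among named leaders of 31 to 100 nt, which as said are near the short end of that range, they were 0 of 99 and 3 of 100. The 3 were Atp5c1, Atp5k and Ndufa7. Atp5k and Ndufa7 were also members in the polysome table, with leaders of 25 and 27 nt. Median TE of the members in this group was 0.00163 over 10 isoforms, between 0.00102 for Ndufb5 and 0.00372 for Ndufa5, against 0.000941 over all 127 named members. Cox6a1 had 0.00163, Ndufs7 0.00141, Ndufa3 0.00195 and Ndufa7 0.00171. Ndufa5 and Ndufb5 had coverages of only 55 and 53.

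These 10 isoforms also had short 3′ UTRs of 57 to 200 nt. The 96 other members with 3′ UTRs of up to 200 nt had a median TE of 0.00118, with quartiles of 0.000900 and 0.00171, and 8 of the 10 were above that median. Coding regions were not matched for length, and the part of mRNA length in the TE of this group was not tested. Half-lives of the respiratory chain and ATP synthase isoforms were about those of the named members. The median was 10.82 over 11 isoforms of 10 genes, between 8.82 for Atp5b and 14.3 for Ndufa9, against 10.85 over all 190 named members, and 5 of the 11 were above it. The leader part of TISU was present in 5 of the 10 and 6 of the 11.

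**Figure D4:**
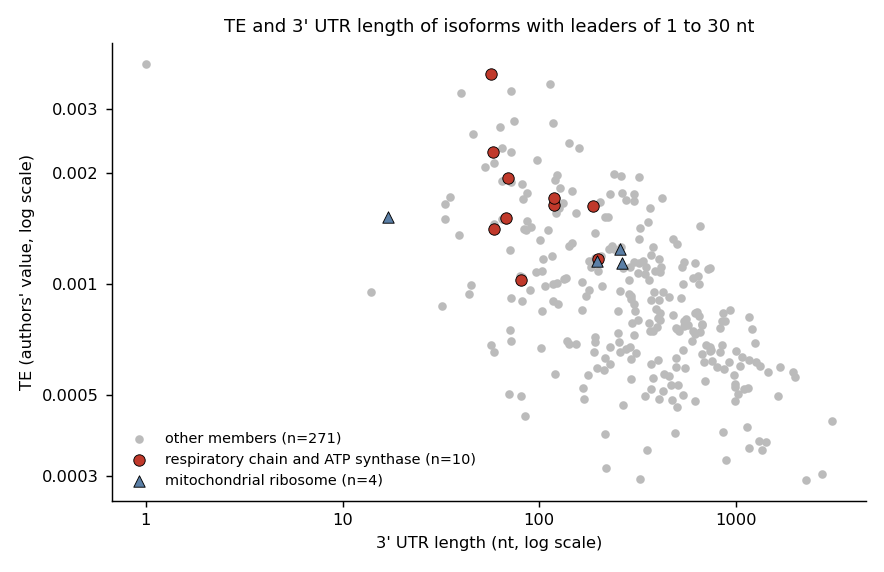
TE (y axis, the authors' value, log scale) of the 285 members against 3′ UTR length (x axis, nt, log scale). Red circles are subunits of the respiratory chain and ATP synthase, blue triangles proteins of the mitochondrial ribosome and grey points the other members. The 10 red points lie between 57 and 200 nt and between 0.00102 and 0.00372, within the upper left part of the cloud.

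Proteins of the mitochondrial ribosome were 8 of the named members in each table and 0 of the named leaders of 31 to 100 nt. Enough coverage for a TE was found for 4 of them, with a median TE of 0.00120. Mrps18a had 0.00124, Mrpl52 0.00152, Mrpl58 0.00115 and Mrpl53 0.00114. The 128 other members with 3′ UTRs of up to 264 nt had a median of 0.00124. Median half-life of the 8 was 11.8, with 15.8 for Mrps18a and 14.2 for Mrpl58, 9.23 for Mrpl21 and 24.4 for Mrpl49, whose coverage was 71.

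The other listed groups had few named members. Of mitochondrial import, Timm50 had a TE of 0.000800 and a half-life of 12.1, and Timm44 a half-life of 7.76. Of the proteasome, Psmb5 had a TE of 0.00190 and Psmc1 one of 0.000925, and their half-lives were 13.2 and 12.1. Of the splicing group, Lsm7, an Sm-like protein, had a TE of 0.00183 and U2af1l4 one of 0.00111. Ube2l3, a ubiquitin-conjugating enzyme, was present with a half-life of 11.1. Of the cytosolic ribosome and of RNA polymerase II and its general factors, 0 named members were found, with TOP starts left out by the rule. Named leaders of 31 to 100 nt had few as well. They were 1 of 99 and 0 of 100 for the cytosolic ribosome, and 0 of 99 and 3 of 100 for RNA polymerase II. Of the muscle genes listed, 1 was named among the members, Tpm4, a tropomyosin also made outside muscle, with a half-life of 9.43. Among named leaders of 31 to 100 nt, 2 of 99 and 2 of 100 were muscle isoforms, all of Tnnc1. Ankrd2 and Ankrd23, described above, are muscle genes outside that list. The myotube label was not checked further.

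In some loci 1 isoform with a short leader and 1 with a leader of 31 to 100 nt shared start codon, stop codon and 3′ end. With both coverages of at least 30, TE was higher with the short leader in 18 of 26 loci and lower in 8. The median log2 ratio was 0.10 (-0.07 to 0.20), a ratio of 1.07. Half-life was higher with the short leader in 12 of 30 loci and lower in 18, with a median log2 ratio of -0.10 (-0.29 to 0.15). Both intervals include 0. The median leaders of the TE pairs had 15 and 57.5 nt. The paired mRNAs thus also differ in length, and the part of mRNA length in the TE ratio was not tested. For scale, isoforms with the same 5′ end and 3′ ends under 50 nt apart differed from each other with an SD of log2 TE of 0.43 over 27 loci and of log2 half-life of 0.54 over 55 loci.

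The most covered member, at chr9:108765769-108778689 (+), had a TE of 0.00156 against 0.000546 with a leader of 72 nt, but that isoform had a coverage of only 31. Its half-life was 11.7 against 13.3 with a leader of 69 nt at a coverage of 47.

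In 4 of the loci both isoforms had a coverage of at least 100 in the polysome table. At chr9:20914217-20920126 (+), TE was 0.00117 with 20 nt and 0.00102 with 39 nt. At chr12:84408815-84420564 (+), it was 0.000900 with 10 nt and 0.000780 with 42 nt. At chr2:154218242-154249916 (-), it was 0.000761 with 25 nt and 0.000483 with 81 nt, and the shorter leader carries the leader part of TISU. The order was the other way at chr12:85157654-85180857 (+), with 0.000599 at 17 nt and 0.000671 at 39 nt.

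Both isoforms reached that coverage in the decay table in 9 loci, and half-life was higher with the short leader in 3 and lower in 6. The isoform at chr7:3697588-3704006 (+) had 16.9 with 13 nt and 11.3 with 56 nt, that at chr12:85157654-85180857 (+) 11.3 with 17 nt and 8.93 with 39 nt, and that at chr11:97594300-97604326 (+) 21.7 with 14 nt and 13.2 with 54 nt. Half-lives were lower with the short leader at chr8:85753515-85756914 (+), with 15.3 at 13 nt and 22.6 at 77 nt, and at chr12:84408815-84420564 (+), with 10.5 at 10 nt and 13.0 at 42 nt. At chr4:40270663-40279354 (-), it was 8.88 with 17 nt and 10.9 with 64 nt. Gaps were smaller at chr15:76337196-76361449 (-), with 12.4 at 28 nt and 12.9 at 58 nt, at chr7:30427133-30428872 (-), with 13.5 at 27 nt and 14.7 at 56 nt, and at chr19:6434485-6448488 (+), with 8.92 at 24 nt and 9.95 at 64 nt.

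**Figure D5:**
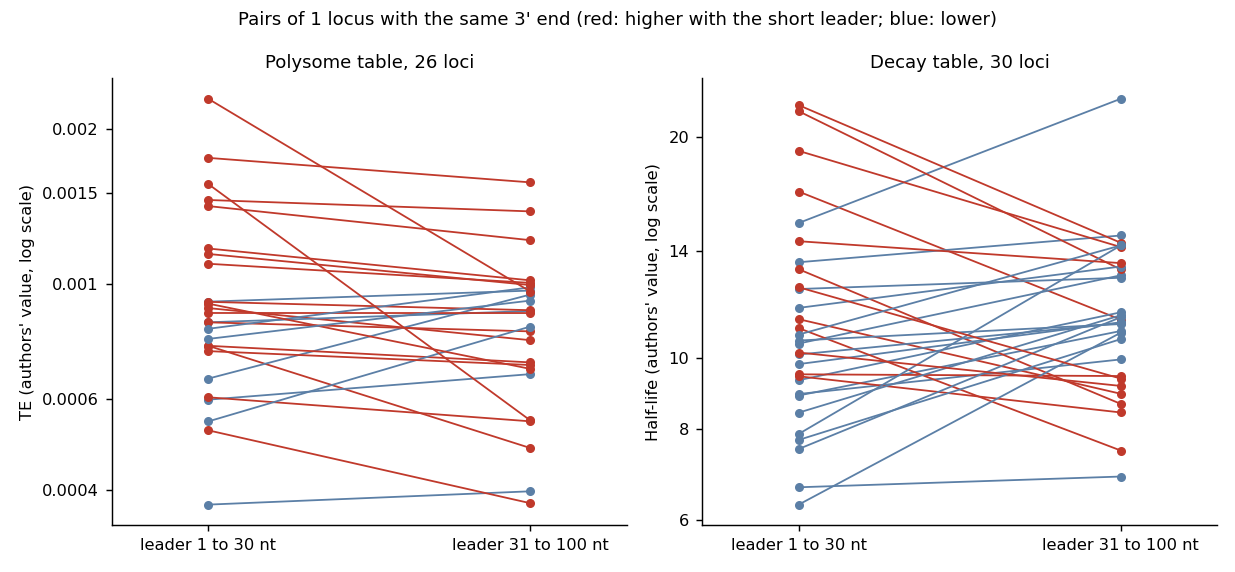
TE (left, 26 loci) and half-life (right, 30 loci), the authors' values on log axes, of 2 isoforms of a locus with the same 3′ end; each line joins the leader of 1 to 30 nt to that of 31 to 100 nt. Red lines are higher with the short leader (18 for TE, 12 for half-life) and blue lines lower (8 and 18).

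TE and half-life went together only loosely among the members. Across the 162 members with both values, Spearman's rho was 0.28, and across 383 isoforms with leaders of 31 to 100 nt it was 0.36. The 41 of these members with the highest TE had a median half-life of 12.3 and the 41 with the lowest TE one of 10.4. Both values were above the medians of these members in 50 and both at or below them in 50, while 31 had only a higher TE and 31 only a longer half-life.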

How the data were processed

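TIF-seq2 reads of 6 polysome and 12 decay libraries were processed by the authors with STAR 2.5.3a, UMI-tools 0.5.4, cutadapt 1.16 and bcl2fastq 2.20.0 on GRCm39, per the submitters' processing notes. The authors deposited 1 table per assay, with a whole-number coverage count per isoform summed over libraries (1601919 in the polysome table and 3121491 in the decay table), UTR sequences, and TE or half-life, here treated as a score. The sources used here give neither the formula of these scores nor the depth per library.

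Members, gene lists and comparisons were chosen with earlier results of these data known. Isoforms with a coverage of at least 30 and a value above 0 were described by medians with exact binomial intervals and shares with Wilson intervals (Python 3.11.15, pandas 2.3.3, numpy 2.4.6, scipy 1.17.1; figures with matplotlib 3.10.9). Intervals cover counting error over isoforms taken as independent, and nothing of differences between mice. Isoforms were joined into loci by a shared end, or by overlap with 20 shared nt at the start or stop codon, and 1 pair per locus was kept, that with the highest lower coverage. The functions were tested on simulated data.

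Named members are the 12 most covered of each table, the 6 highest and 6 lowest values and the 6 shortest leaders at a coverage of at least 100, pairs with both coverages of at least 100, and up to 4 members of each gene group, with further members where a range or a sequence is given. The rule for names asked only for the leader and ATG in windows of 1 gene. The filter on the distance between positions in both builds was added after the data had been looked at and revised, judged by the matches and not by TE or half-life. A limit of 20000 nt named 164 polysome and 199 decay members, a limit of 1000 nt named 172 and 218, and the version used, with 20 nt for leaders under 10 nt, named 170 and 218. Also added after the data were looked at were the coverage minimum of 100 as an alternative, the comparison with leaders of 31 to 38 nt, the letters at -8 to -5, the leaders with new ends, the split by annotated start and the comparison of gene groups by 3′ UTR length.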

Additional observations from a re-analysis of the deposited data

How the results depend on the processing

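No leave-one-out and no test over mice could be run, since 0 columns hold a single library. No paired analysis was possible because no column carries a replicate number. Of 80 alternative values of the 10 comparisons, 5 gave the same value over the same numbers of isoforms or loci and so bear on nothing (values at or below 0 kept, a partner of any annotation class, and for half-life 5′ ends at least 20 nt apart). Of the other 75, 74 stayed within the interval of the value reported, which is wide where isoforms are few. The alternatives are drawn largely from the same isoforms. For TE the half-width of that interval, 0.152, exceeds the log2 difference of 0.143, so even no difference would have stayed within it. The difference in the purine at -3 in the decay table, 2.25 percentage points, was -1.86 in isoforms with the same ends in both tables; the cause was not tested. In the polysome table this difference lay between -2.21 and 1.44 points over 8 alternatives, so neither table gives it a direction. The difference in the leader part of TISU lay between 14.6 and 18.1 points in the polysome table and between 15.7 and 19.01 in the decay table, over 9 alternatives each. The log2 TE difference lay between 0.03, against leaders of 31 to 60 nt, and 0.18, and the log2 half-life difference between -0.09 and -0.04, the smallest at a coverage of at least 100. The ratio of 3′ UTR lengths lay on both sides of 1, between 0.916 and 1.02 in the polysome table and between 0.965 and 1.11 in the decay table. Within loci, the median log2 ratio lay between 0.10 and 0.12 for TE and between -0.14 and -0.09 for half-life. With no limit on the distance used for gene names, 161 polysome and 205 decay members were named, 21 of 154 and 27 of 194 carried TISU, and the respiratory chain isoforms kept a median TE of 0.00163 over 10; with the limit of 20000 nt it was 0.00163 over 8. Coverage limits what can be said of single isoforms, since the median coverage of the 433 polysome members was 56 and of the 511 decay members 122.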

Other observations

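A pair of digestive enzyme genes of the pancreas stood among the named members of these myotube tables; they were looked for after their names had been seen, in a list of 36 such genes. Ctrb1, the precursor of chymotrypsin, had a leader of 18 nt, a coverage of 720 in the polysome and 295 in the decay table, a TE of 0.00149 and a half-life of 15.2. Cela3b, an elastase, had a leader of 21 nt, a coverage of 69 and a half-life of 11.3 in the decay table. The source of these reads was not tested.

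The short leaders left out for a TOP start held the leader part of TISU too. Its share was 39.1% among the 23 used for TE and 33.3% among the 33 used for half-life. Their median TE was 0.000818 and their median half-life 11.7, with median 3′ UTRs of 137 and 127 nt.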
